A study of Saccharomyces cerevisiae with 6 samples.

Results

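The nuclear genes for the large subunit of the yeast mitochondrial ribosome were represented by 51 RNAs of 30 genes in a pool of 6962 RNAs from 4134 genes. The members were fixed as 38 loci, namely the MRPL genes listed with RML2, IMG1, IMG2 and MRP7, and every RNA whose locus tag was on that list was taken. No RNA of the other 8 loci (MRPL3, MRPL7, MRPL9, MRPL10, MRPL13, MRPL15, MRPL20 and IMG1) is analysed here. Of the 30 genes, 16 had 1 RNA, 8 had 2, 5 had 3 and MRPL40 had 4, and the RNAs of 1 gene carried leaders of different length, a leader being the untranslated stretch that precedes the start codon. The pool was transcribed with T7 RNA polymerase, capped and incubated in a translation extract of Saccharomyces cerevisiae, and RNA was then taken from 2 fractions of a sucrose gradient. The first fraction (80S, 3 libraries) held RNA bound by a complete ribosome, and the second (2 libraries) held RNA that the labels call untranslated. The labels of the single input library conflict: one field names phenol and chloroform extraction alone, where the fractions also have a biotin pulldown, and its general protocol lists the gradient and pulldown for every library. The RNA came from a synthetic template built from yeast sequence, so the values describe leaders in an extract and not cellular mRNA, and no strain is named for the extract.

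The mitochondrial ribosome makes a handful of hydrophobic proteins of the respiratory chain from mitochondrial DNA, while its own proteins are encoded in the nucleus, made on cytosolic ribosomes and imported. Some of its large subunit proteins have bacterial counterparts and carry the prefixes uL or bL in the common nomenclature, and others are particular to mitochondria and carry the prefix mL. On a capped leader, a small ribosomal subunit with its initiation factors binds near the cap and scans towards the start codon, and joining of the large subunit there gives an 80S ribosome. The values give the abundance of these leaders, relative to the pool, in RNA with an 80S ribosome and in RNA called untranslated. Each library is scaled to its own size, so the part of a leader's RNA that carried a ribosome cannot be read from them.

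Sequences were read from the S. cerevisiae reference genome R64 (RefSeq), taking the number in the name of an RNA as the length of its leader. Transcription in yeast mostly starts at a purine that follows a pyrimidine, and with this reading the first base was A in 39 of 51 members and the base before it a pyrimidine in 51. Of the 6962 pool RNAs, 6855 could be placed before an annotated ATG, and of these 5365 began with A and 6591 followed a pyrimidine. The annotation gives no UTRs here, so a leader is placed only by its distance from the annotated start codon. The leaders of MRPL19 overlapped the annotated gene YNL184C on the same strand and those of MRPL51 the gene YPR099C on the opposite strand, and no other member leader overlapped an annotated gene. In 3 genes the leader holds an ATG before the start codon (capitals), and in each an out-of-frame one starts within 10 nt of the start codon and has T at its position -3.
RML2, chrV:60847-60864, minus strand: gtgtttATGaaagatgtt
MRPL39, chrXIII:251515-251532, minus strand: atatttATGtgccgatat
MRPL51, chrXVI:729777-729794, plus strand: gaatatATGgagaaatgg
MRPL51, longer leader only, chrXVI:729753-729764, plus strand: ATGactaagtag

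The next stretches set the longer of a pair of leaders apart from the shorter. They are shown because the ratio of 80S to untranslated RNA differed within the pair. The MRPL40 pair differed by only 1.58-fold, a call lost on leaving out 80S replicate 1 or 3. Its stretch joins 14 nt that went with a fall (52 to 66 nt, log2 difference -1.76) to 11 nt that went with a rise (41 to 52 nt, 1.10). In the MRPL40 stretch the capitals mark 7 bases and their exact reverse complement, 9 nt apart; no other member leader holds such a stem of 7 base pairs with at least 3 nt between its arms, and 5.09% of the 6855 leaders of the pool do (6.81% of those of 56 to 76 nt).
MRPL27, 38 nt against 14 nt, chrII:768202-768225, plus strand: aaagattaccttgaaagtgaggac
MRPL40, 66 nt against 41 nt, chrXVI:223077-223101, plus strand: aaGGATTACctgataagaGTAATCC
MRPL4, 58 nt against 47 nt, chrXII:1014433-1014443, plus strand: aagagagtacc
MRPL31, 99 nt against 86 nt, chrXI:185768-185780, minus strand: ataacaaaaggac
RML2, 64 nt against 51 nt, chrV:60903-60915, minus strand: aaaagagaacgtt

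The start codons (capitals) of MRPL35 and MRPL17, whose short leaders went with large falls, and of MRPL33, a short leader that went with a rise, are shown with up to 18 leader bases.
MRPL35, chrIV:1110571-1110597, plus strand: caaggtcactgccgaactATGttacga
MRPL17, chrXIV:172278-172304, minus strand: aagcgcttatccagtaccATGaaggta
MRPL33, chrXIII:841925-841950, plus strand: gaaagcagatatcaggaATGgtgttt

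The unit is FPKM, in which reads are divided by RNA length and library size, and the values of each library summed to between 24779700 and 28542200. Read counts are unknown, so no counting error can be given. The median member stood at 1657 to 1822 in the 80S libraries, 1743 and 1854 in the untranslated libraries and 2331 in the input, against pool medians of 2049 to 3112. Between replicates the median SD of a member on the log2 scale was 0.20 in 80S (n = 3) and 0.23 in untranslated RNA (n = 2). In 5 members the untranslated replicates differed by 2-fold or more, each time with replicate 1 higher, and in the pool 532 RNAs (7.64%) did, 483 of them with replicate 1 higher. Separate extracts or incubations are not stated for the replicates. The p-values therefore measure only how far these libraries spread, and that spread may be technical.

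The comparison of 80S with untranslated RNA asks which leaders were relatively more abundant in RNA bound by a ribosome. RNAs of the mitochondrial large subunit went both ways, with more lower than higher in 80S. RML2 with a 64 nt leader (4.63-fold) and MRPL51 with a 38 nt leader (4.51-fold) had the largest rises. MRPL35 with a 26 nt leader (7.4-fold), MRPL4 with a 58 nt leader (6.38-fold) and MRPL17 with a 20 nt leader (6.36-fold) had the largest falls. In limma 31 of the 51 RNAs passed an adjusted p of 0.05 (60.8%, against 70.4% of the pool). Of these, 11 were higher in 80S (21.6%, against 38.6% of the pool), 20 were lower (39.2%, against 31.8%), and 20 RNAs did not pass. By 2-fold or more 7 were higher and 11 lower, where the pool had 27.5% and 23.5%. The median log2 difference of the members was -0.17, with quartiles at -0.85 and 0.60, and that of the pool was 0.18. After rescaling by median ratios both medians moved down, to -0.32 and 0.03, so values near 0 depend on the scaling. Under that rescaling 8 members were higher and 22 lower. No test set the members against the pool, and the shares stand as a description.

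**Figure D1:**
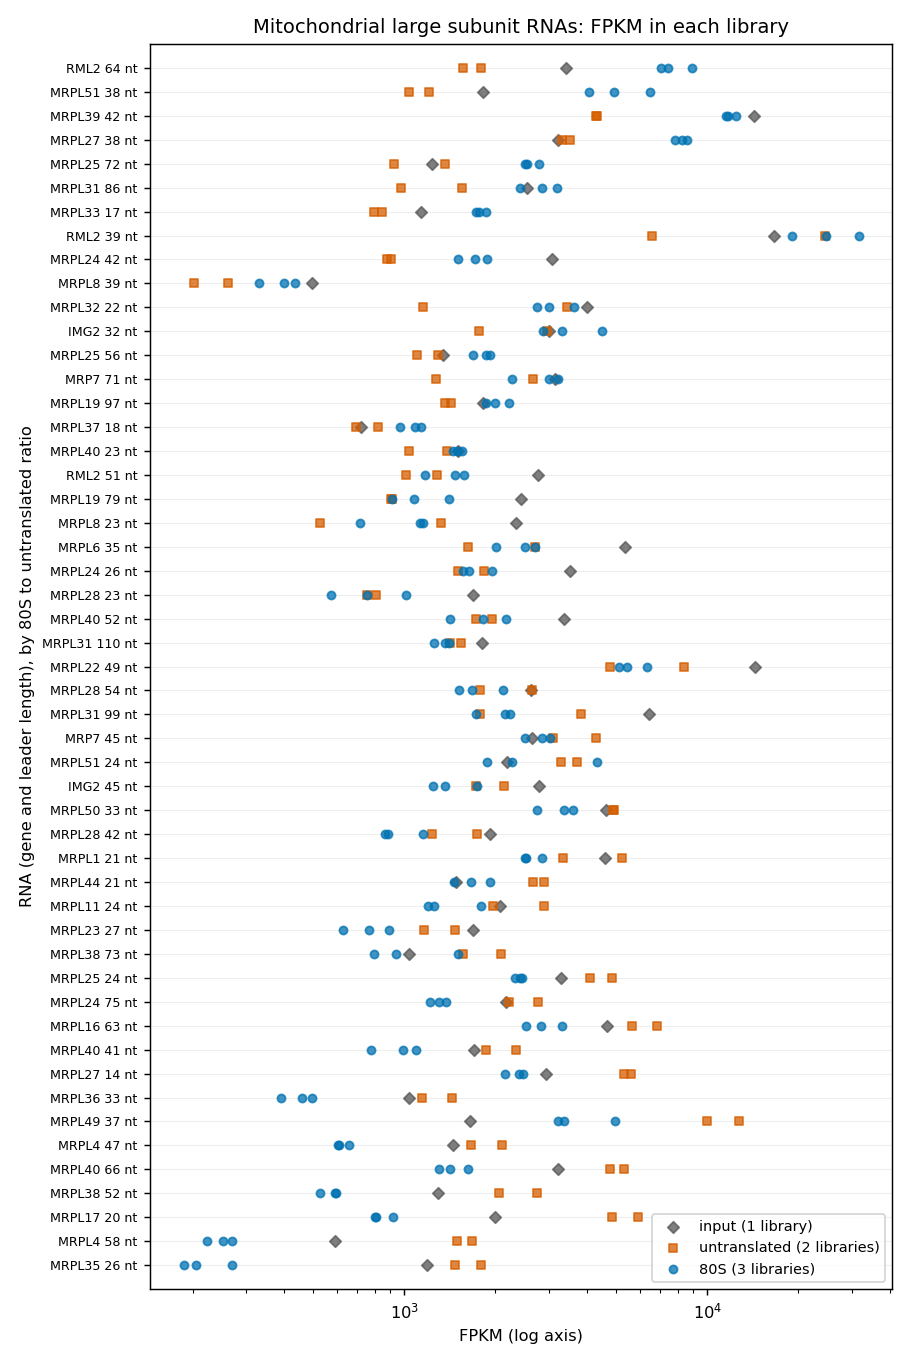
FPKM (log axis) of the 51 RNAs in each library, in order of the 80S to untranslated ratio, with 3 80S libraries (circles), 2 untranslated libraries (squares) and the input (diamond). At the bottom MRPL35 has its 80S libraries at 187 to 269 and its untranslated libraries at 1465 and 1797; at the top RML2 with 64 nt has its 80S libraries at 7052 to 8931 and its untranslated libraries at 1562 and 1795.

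The 80S libraries all lay above both untranslated libraries in 13 members (25.5%, against 43.6% of the pool) and below both in 22 (43.1%, against 35.9%), and overlapped them in 16. Calls rest on limma, which pools the spread over all RNAs, because the smallest two-sided p of an exact permutation test of 3 libraries against 2 is 0.1. Of the 31 calls, 21 held under all 13 alternatives, 8 as higher and 13 as lower. Without untranslated replicate 1, 15 members were higher and 19 lower, and without untranslated replicate 2, 9 and 20. The RNAs that came to pass without replicate 1 were MRPL32, RML2 with 39 nt, IMG2 with 32 nt, MRPL8 with 23 nt, MRP7 with 71 nt and MRPL28 with 54 nt, and without replicate 2 they were MRPL31 with 99 nt, MRPL22 and MRP7 with 45 nt.

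**Figure D2:**
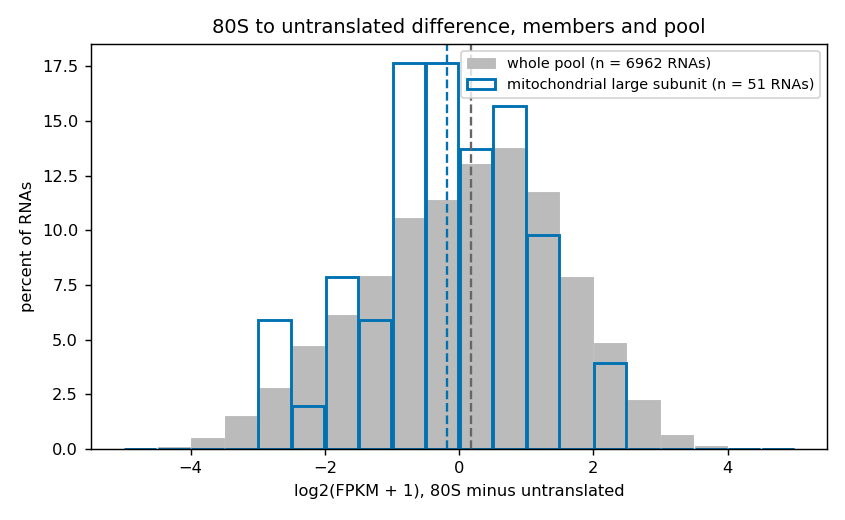
Percent of RNAs (y axis) by log2(FPKM + 1) in 80S minus untranslated RNA (x axis), for the 6962 RNAs of the pool (grey) and the 51 of the mitochondrial large subunit (blue outline), with dashed lines at the medians of 0.18 and -0.17. The members span -2.89 to 2.21, inside the range of the pool of -4.33 to 4.50.

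Roles of the proteins were assigned with results of these data known, and each group holds few RNAs, several of them from 1 gene, so the counts by role are a description beside the pool shares of 38.6% higher and 31.8% lower. Among proteins at the peptidyl transferase centre, where peptide bonds form, 1 of 6 RNAs was higher, 1 lower and 4 did not pass. RML2 (YEL050C, uL2), a core protein of that centre, had the largest rise with its 64 nt leader. Its FPKM was 7404, 7052 and 8931 in 80S, 1795 and 1562 in untranslated RNA and 3421 in the input. The groups did not overlap, and every 80S library exceeded both untranslated libraries (log2 difference 2.21, SE 0.19, limma, adjusted p = 2.8e-05). The RML2 RNA with a 39 nt leader was the most abundant member, at 24605, 19020.2 and 31614 in 80S and 24392 and 6554 in untranslated RNA. Its untranslated replicates differed more than the fractions did, and the difference of 0.96 did not pass (limma, adjusted p = 0.106). That difference was 0.01 without untranslated replicate 2 and passed at 1.91 without replicate 1 (limma, adjusted p = 1.56e-05). MRPL16 (YBL038W, uL16), which lies by the transferase centre, was lower with its 63 nt leader, at 2817, 2529 and 3314 in 80S and 6828 and 5648 in untranslated RNA (log2 difference -1.11, SE 0.19, limma, adjusted p = 0.00109). Its groups did not overlap. Neither RNA of MRP7 (YNL005C, bL27), whose tail reaches towards the transferase centre in bacteria, passed: the log2 differences were -0.40 for 45 nt and 0.60 for 71 nt.

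Proteins of the stalks, which bind factors or move with the leaving tRNA, gave 1 higher and 2 lower of 4 RNAs. MRPL1 (YDR116C, uL1) was lower with 21 nt, at 2848, 2508 and 2527 in 80S against 3332 and 5214 in untranslated RNA (log2 difference -0.67, SE 0.23, limma, adjusted p = 0.027). MRPL11 (YDL202W, uL10) was lower with 24 nt, at 1201, 1256 and 1797 against 2888 and 1958 (log2 difference -0.77, SE 0.26, limma, adjusted p = 0.0286). The 80S libraries lay below both untranslated libraries in both genes, with MRPL11 in 80S replicate 3 close to untranslated replicate 2. MRPL19 (YNL185C, uL11) was higher with its 97 nt leader (log2 difference 0.53, SE 0.19, limma, adjusted p = 0.0342) and stood at 0.29 with 79 nt, which did not pass. All 3 calls were lost on leaving out single libraries: the differences were -0.34 for MRPL1 without untranslated replicate 2, -0.49 for MRPL11 without untranslated replicate 1 and 0.47 for MRPL19 without 80S replicate 3, and each was also lost without at least 2 other libraries.

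To the exit tunnel, through which the new chain leaves, only MRPL4, MRPL22 and MRPL40 were assigned. Of their 7 RNAs, 4 were lower and none was higher (31.8% and 38.6% of the pool). MRPL40 gave 4 of the 7. These counts depend on the assignment, since MRPL8 (bL17), MRPL32 (bL32) and MRP20 (uL23) could also be placed around the exit. Of these, MRPL8 with 39 nt (0.74) and MRP20 with 38 nt (2.17) were higher. MRPL8 with 23 nt, MRPL32 and MRP20 with 53 nt did not pass. MRPL4 (YLR439W, uL29), at the rim of the tunnel, was lower with both leaders. Its 58 nt RNA had FPKM of 251, 269 and 222 in 80S, 1673 and 1493 in untranslated RNA and 591 in the input (log2 difference -2.67, SE 0.23, limma, adjusted p = 3e-05). The input of this RNA lay between the fractions, with the 80S libraries far below it. Its 47 nt RNA had 605, 608 and 656 in 80S and 2105 and 1654 in untranslated RNA (log2 difference -1.58, SE 0.21, limma, adjusted p = 0.000272). MRPL40 (YPL173W, uL24) was lower with 66 nt, at 1625, 1302 and 1417 against 4783 and 5324 (log2 difference -1.81, SE 0.19, limma, adjusted p = 7.39e-05). It was also lower with 41 nt, at 1091, 776 and 989 against 1854 and 2345 (log2 difference -1.14, SE 0.23, limma, adjusted p = 0.0025). For these MRPL40 RNAs no 80S library reached an untranslated one. MRPL22 (YNL177C, uL22), which lines the tunnel, did not pass with 49 nt, at 5099, 5452 and 6318 in 80S and 8377 and 4770.4 in untranslated RNA. Its difference of -0.17 changed sign, to 0.23, without untranslated replicate 1 and passed as lower, at -0.58, without replicate 2 (limma, adjusted p = 0.0238).

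In the central protuberance, the crown of the subunit, 4 of 6 RNAs were lower and none was higher (31.8% and 38.6% of the pool), and 1 of these falls was lost under several alternatives. MRPL35 (YDR322W, mL38) had the largest fall of all members, and 2.64% of the pool had a difference at or below its own. Its FPKM was 269, 187 and 206 in 80S, 1465 and 1797 in untranslated RNA and 1190.1 in the input (log2 difference -2.89, SE 0.26, limma, adjusted p = 3.43e-05). The untranslated libraries stood near the input and the 80S libraries far below both. MRPL17 (YNL252C, mL46) had 798, 916 and 807 in 80S, 4831 and 5899 in untranslated RNA and 1986 in the input (log2 difference -2.67, SE 0.20, limma, adjusted p = 1.77e-05). Here the input lay between the fractions, apart from both. MRPL36 (YBR122C, bL31) was lower with 33 nt, at 459, 391 and 496 against 1143 and 1438 (log2 difference -1.52, SE 0.23, limma, adjusted p = 0.000559). MRPL28 (YDR462W, mL40) had 3 RNAs between -0.62 and -0.04, and its 42 nt RNA alone passed, narrowly (limma, adjusted p = 0.0498). That call was lost without 80S replicate 1 (-0.54), 80S replicate 3 (-0.56) or untranslated replicate 2 (-0.37).

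Other proteins with bacterial counterparts had 4 of 14 RNAs higher and 6 lower. MRPL39 (YML009C, bL33) was higher with 42 nt and was among the most abundant members. It had 11713, 11528 and 12406 in 80S, 4325 and 4299.8 in untranslated RNA and 14304 in the input (log2 difference 1.46, SE 0.15, limma, adjusted p = 6.89e-05). Its 80S libraries stood near the input and its untranslated libraries well below. MRPL33 (YMR286W, uL30), with a leader of 17 nt, was higher, at 1728, 1768 and 1857 against 841 and 793 (log2 difference 1.13, SE 0.19, limma, adjusted p = 0.000989). MRPL24 (YMR193W, bL28) with 42 nt and MRPL8 (YJL063C, bL17) with 39 nt were also higher, by 1.9-fold and 1.68-fold. MRPL38 (YKL170W, uL14), on the face towards the small subunit, was lower with 52 nt, at 526, 592 and 593 in 80S and 2050.4 and 2739 in untranslated RNA (log2 difference -2.06, SE 0.22, limma, adjusted p = 8.41e-05). MRPL49 (YJL096W, bL21) was lower with 37 nt, at 4974, 3354 and 3213 in 80S and 12714 and 9958 in untranslated RNA (log2 difference -1.58, SE 0.24, limma, adjusted p = 0.000484), although both fractions exceeded its input of 1653. The other falls were those of MRPL24 with 75 nt (1.9-fold), MRPL38 with 73 nt (1.74-fold), MRPL23 (YOR150W, uL13, 27 nt, 1.73-fold) and MRPL50 (YNR022C, bL9, 33 nt, 1.53-fold). The call for MRPL23 was lost without 80S replicate 2 (-0.66) or untranslated replicate 1 (-0.62), that for MRPL50 without 80S replicate 3 (-0.49) and that for MRPL8 without 80S replicate 1 (0.66), 80S replicate 3 (0.72) or untranslated replicate 2 (0.56). MRPL6 (YHR147C, uL6, 35 nt), MRPL32 (YCR003W, bL32, 22 nt), MRPL8 with 23 nt and MRPL24 with 26 nt did not pass. MRPL32, which is cut to its mature form after import by a protease of the inner membrane, had 2996, 2733 and 3637 in 80S and 3446 and 1152 in untranslated RNA. Its untranslated replicates lay further apart than those of any member but RML2 with 39 nt, and its difference passed as higher (1.43) without untranslated replicate 1 and stood at -0.15 without replicate 2.

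The remaining mitochondria-specific proteins had 5 of 14 RNAs higher and 3 lower. MRPL51 (YPR100W, mL43) had 6460.1, 4060.0 and 4908 in 80S, 1037 and 1205 in untranslated RNA and 1822 in the input with its 38 nt leader (log2 difference 2.17, SE 0.23, limma, adjusted p = 8.3e-05). Every 80S library was above the input and both untranslated libraries were below it. MRPL27 (YBR282W, mL41) was higher with 38 nt, at 8236, 7847 and 8554 against 3518 and 3305 (log2 difference 1.27, SE 0.16, limma, adjusted p = 0.000192). MRPL25 (YGR076C, mL59) with 72 nt had 2534, 2780.3 and 2501 against 922 and 1362 (log2 difference 1.21, SE 0.22, limma, adjusted p = 0.0015). MRPL31 (YKL138C, mL60) with 86 nt had 2848, 2411 and 3185 against 1553 and 976 (log2 difference 1.18, SE 0.25, limma, adjusted p = 0.00299). The groups of these 3 RNAs did not overlap. The fifth rise, MRPL25 with 56 nt (1.52-fold), was lost without any 1 of the 80S libraries (0.57 to 0.66) and without untranslated replicate 2 (0.49). The falls were those of MRPL27 with 14 nt (2.34-fold), MRPL25 with 24 nt (1.87-fold) and MRPL44 (YMR225C, mL53) with 21 nt (1.67-fold). The call for MRPL44 was lost without 80S replicate 1 (-0.64). MRPL37 (YBR268W, mL54), with 18 nt, and both RNAs of IMG2 (YCR071C, mL49) did not pass, at 0.49, 0.61 and -0.42.

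Leaders of 1 gene share their start codon, so a pair asks what the extra stretch of the longer leader goes with, and log2 differences between leaders are given as longer minus shorter. The 14 genes with several RNAs gave 29 pairs, and the ratio of 80S to untranslated RNA differed within 20 pairs of 11 genes (69.0%, against 68.9% of the 3811 pairs of the pool) at an adjusted p of 0.05 in limma. In 10 pairs the ratio was higher for the longer leader (34.5%, against 34.2%) and in 10 it was lower (34.8% of the pool). In 16 pairs of 10 genes the difference was 2-fold or more (55.2%, against 54.6% of the pool). In 4 pairs of 3 genes, MRPL24, MRPL25 and MRPL27, 1 leader was called higher in 80S and the other lower (13.8% of pairs, against 16.5% in the pool). Pairs of 1 gene with 3 or 4 leaders share RNAs and are not independent, and how the authors' counting assigned reads common to leaders of 1 gene is not given. Of the 20 calls, 18 held under all 13 alternatives, the others being RML2 from 39 to 64 nt and MRPL40 from 41 to 66 nt.

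**Figure D3:**
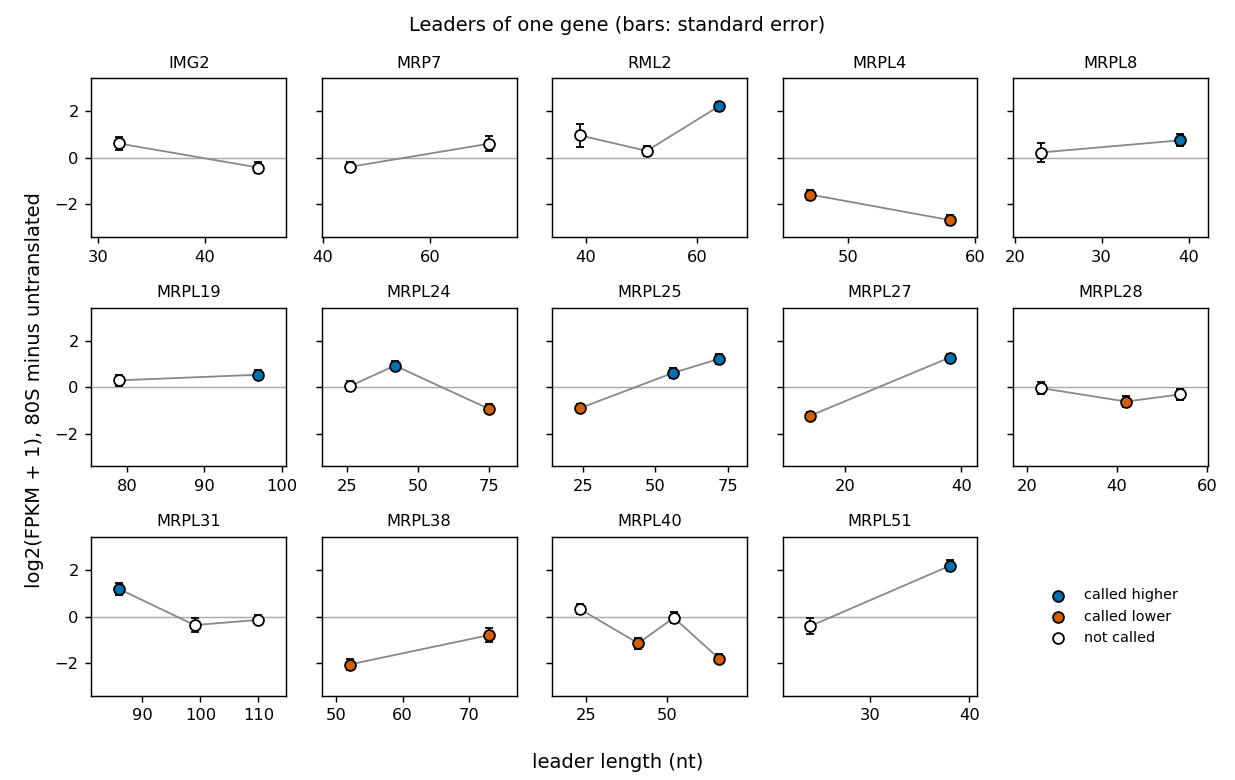
Difference in log2(FPKM + 1) between 80S and untranslated RNA (y axis) against leader length (x axis) for the 14 genes with several leaders, with the standard error from limma as bars and colour for the call. MRPL25 and MRPL27 cross from called lower to called higher with length, MRPL24 goes from higher at 42 nt to lower at 75 nt, and MRPL4 and MRPL38 are called lower at both lengths.

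MRPL51 had the widest contrast between leaders. Its 24 nt RNA had 4330.4, 1871 and 2271 in 80S and 3297 and 3718 in untranslated RNA, overlapping groups, with a difference of -0.41 that did not pass and that passed as lower (-0.76) without 80S replicate 1. The 38 nt RNA, given above, did not overlap, and its ratio was 5.99-fold that of the shorter leader (log2 difference 2.58, SE 0.23, limma, adjusted p = 6.82e-05). The 14 nt that set the longer leader apart begin with the ATG shown above, at the first base of the leader, which opens a frame of 3 codons that ends before the start codon. Both leaders hold the other upstream ATG.

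For MRPL27 the 14 nt RNA had 2472, 2151 and 2393 in 80S and 5603 and 5309 in untranslated RNA, and the 38 nt RNA had the reverse order. The ratio of the longer was 5.62-fold that of the shorter (log2 difference 2.49, SE 0.19, limma, adjusted p = 3.14e-05), and all 3 80S libraries of the longer exceeded every value of the shorter. The 24 nt stretch shown above separates them. In the input the pair stood close together, at 2932 and 3221.

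For MRPL25 the longer leaders had the higher ratios. With 24 nt it had 2407, 2318 and 2452 in 80S and 4107 and 4866 in untranslated RNA. With 56 nt it had 1858, 1925 and 1680.2 in 80S and 1294 and 1099 in untranslated RNA. From 24 to 72 nt the ratio was 4.34-fold higher (log2 difference 2.12, SE 0.21, limma, adjusted p = 9.08e-05) and from 24 to 56 nt 2.85-fold higher (log2 difference 1.51, SE 0.23, limma, adjusted p = 0.000721). From 56 to 72 nt the difference of 0.61 did not pass.

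RML2 did not follow length in order. Its 51 nt RNA had 1466, 1169 and 1574 in 80S, 1279.8 and 1009.5 in untranslated RNA and 2753 in the input. The 64 nt RNA, longer by the 13 nt shown above, had a ratio 3.78-fold higher (log2 difference 1.92, SE 0.20, limma, adjusted p = 0.000133). Against the 39 nt leader the 64 nt leader was 2.38-fold higher (log2 difference 1.25, SE 0.46, limma, adjusted p = 0.0409), a call that was lost without 80S replicate 1, 2 or 3 and without untranslated replicate 1, where the log2 difference was 0.41. The difference stood between 1.14 and 1.33 without single 80S libraries. All 3 leaders hold the same upstream ATG.

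MRPL40 had 4 leaders and its ratio alternated with length. The 23 nt RNA had 1556, 1453 and 1493 in 80S and 1036 and 1387 in untranslated RNA, and the 52 nt RNA had 2163, 1419 and 1822 in 80S and 1725 and 1949 in untranslated RNA. Neither of these 2 RNAs passed, whereas those of 41 and 66 nt were lower. Adding 18 nt to the 23 nt leader went with a ratio 2.77-fold lower (log2 difference -1.47, SE 0.21, limma, adjusted p = 0.000541), and adding 11 nt more with one 2.14-fold higher (log2 difference 1.10, SE 0.19, limma, adjusted p = 0.00147). The last 14 nt went with a ratio 3.39-fold lower (log2 difference -1.76, SE 0.20, limma, adjusted p = 0.000174). These 14 nt bring in the first arm of the stem shown above, and the predicted folding energy of the leader alone was -0.8 kcal/mol at 23, 41 and 52 nt and -11.5 kcal/mol at 66 nt. The fall at 41 nt came with no change in that energy. Lower energies were predicted for MRP7 with 71 nt (-12.8 kcal/mol) and the 3 MRPL31 leaders (-14.3 to -15.2 kcal/mol). Of these RNAs only MRPL31 with 86 nt passed, and it was higher in 80S. Whether folding bears on the ratio was not tested.

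In 4 more genes a longer leader had a lower ratio than a shorter one. MRPL24 with 26 nt had 1630.1, 1568 and 1955 in 80S and 1836 and 1509 in untranslated RNA and did not pass. With 42 nt it had 1868, 1509.8 and 1716 in 80S and 879.6 and 903 in untranslated RNA, and with 75 nt 1307, 1214 and 1375 in 80S and 2757 and 2210.2 in untranslated RNA. The 80S values spanned a narrower range over these leaders than the untranslated values. The ratio was 3.61-fold lower at 75 than at 42 nt (log2 difference -1.85, SE 0.21, limma, adjusted p = 0.000178). It did not follow length in order. From 26 to 42 nt the ratio was 1.85-fold higher (log2 difference 0.89, SE 0.22, limma, adjusted p = 0.0081). From 26 to 75 nt it was 1.95-fold lower (log2 difference -0.97, SE 0.19, limma, adjusted p = 0.0026). For MRPL31 the ratio at 86 nt exceeded that at 99 nt by 2.92-fold (log2 difference -1.55, SE 0.21, limma, adjusted p = 0.000449) and that at 110 nt by 2.5-fold (log2 difference -1.32, SE 0.27, limma, adjusted p = 0.00351). MRPL31 with 99 nt had 2158, 1730.5 and 2239 in 80S and 3825 and 1784 in untranslated RNA, and its difference of -0.36 was 0.19 without untranslated replicate 1 and passed as lower at -0.91 without replicate 2. MRPL31 with 110 nt had 1408, 1258 and 1358 in 80S and 1413 and 1544 in untranslated RNA, which nearly touched. For MRPL4 the 11 nt shown above went with a ratio 2.13-fold lower (log2 difference -1.09, SE 0.21, limma, adjusted p = 0.00261).

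The ratio of IMG2 was 2.05-fold lower with 45 than with 32 nt (log2 difference -1.03, SE 0.21, limma, adjusted p = 0.00365), although neither RNA passed alone. Its 32 nt RNA had 3306, 2863 and 4491 in 80S and 2968 and 1762 in untranslated RNA, and its 45 nt RNA 1361, 1240.4 and 1744 in 80S and 2139 and 1728 in untranslated RNA. The fractions overlapped for both, and the 2 differences had opposite signs. MRPL38 had the reverse direction, with the ratio 2.39-fold higher at 73 nt, where FPKM was 941, 1504 and 797 in 80S and 1564 and 2091 in untranslated RNA (log2 difference 1.26, SE 0.28, limma, adjusted p = 0.00542). The fall of the 73 nt RNA itself was lost without 80S replicate 1 (-0.72), 80S replicate 3 (-0.60) or untranslated replicate 2 (-0.59). MRP7 had a higher ratio with 71 than with 45 nt, by 1.99-fold (limma, adjusted p = 0.00724). The pairs of MRPL8, MRPL19 and MRPL28 did not pass.

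Setting a fraction beside the input asks how each leader's abundance there compared with the starting RNA. In 80S, MRPL51 with 38 nt (2.77-fold), MRPL27 with 38 nt (2.55-fold) and MRPL49 with 37 nt (2.28-fold) had the largest rises over the input. MRPL35 with 26 nt (5.43-fold), MRPL31 with 99 nt (3.16-fold) and MRPL22 with 49 nt (2.57-fold) had the largest falls. In limma 28 of 51 RNAs passed (54.9%, against 53.3% of the pool), of which 5 exceeded the input in 80S (9.80%, against 20.1%) and 23 were lower (45.1%, against 33.2%). By 2-fold or more 5 were higher (14.1% of the pool) and 15 lower (27.6% of the pool). Both fractions share the 1 input library, which is assumed in the fit to vary like the fractions, and, since the labels conflict on whether the input had a biotin pulldown, an effect of that step cannot be told apart from the fraction. After rescaling by median ratios 14 members were lower in 80S than in the input, and 15 without 80S replicate 2 or without 80S replicate 3.

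The rise of MRPL51 over the input had an adjusted p of 0.00409 in limma (log2 difference 1.47). MRPL27 stood at 1.35 (limma, adjusted p = 0.00116). RML2 with 64 nt and MRPL25 with 72 nt were the other RNAs higher than the input, at 1.18 and 1.07. The fall of MRPL35 was -2.44 (SE 0.32, limma, adjusted p = 0.000725), larger than that of any other member. MRPL31 with 99 nt fell by 1.66 on the log2 scale from an input of 6426 (limma, adjusted p = 0.00874). MRPL22 had an input of 14399 and fell by 1.36 on the log2 scale (limma, adjusted p = 0.00751).

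MRPL49 was the 1 member called higher than the input in both fractions (6.55% of the pool), by 2.28-fold in 80S and 6.8-fold in untranslated RNA (limma, adjusted p = 0.0109 and 0.000635). All 5 fraction libraries of MRPL49 exceeded its input. In 9 of 51 members both fractions were lower than the input (13.7% of the pool), among them MRPL22, MRPL6 and the MRPL31 RNA of 99 nt. The input exceeded both fraction means in 20 members (39% of the pool) and lay below both in 7 (20.3% of the pool). In 3 members, MRPL17, MRPL4 with 58 nt and MRPL38 with 52 nt, 80S was lower and untranslated RNA higher than the input (4.41% of the pool). RML2 with 64 nt was the 1 member with 80S higher and untranslated RNA lower (3.49% of the pool). In all, 20 members passed for untranslated RNA against the input (39.2%, against 51.8% of the pool), with 6 higher (17.4% of the pool) and 14 lower (34.4% of the pool). By 2-fold or more 3 were higher (13.3% of the pool) and 13 lower (29.1% of the pool). Under median-ratio rescaling the 6 and 14 became 11 and 5, and the balance of this comparison thus depended on the scaling. Without 80S replicate 1, 8 members were lower and 13 passed in all.

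**Figure D4:**
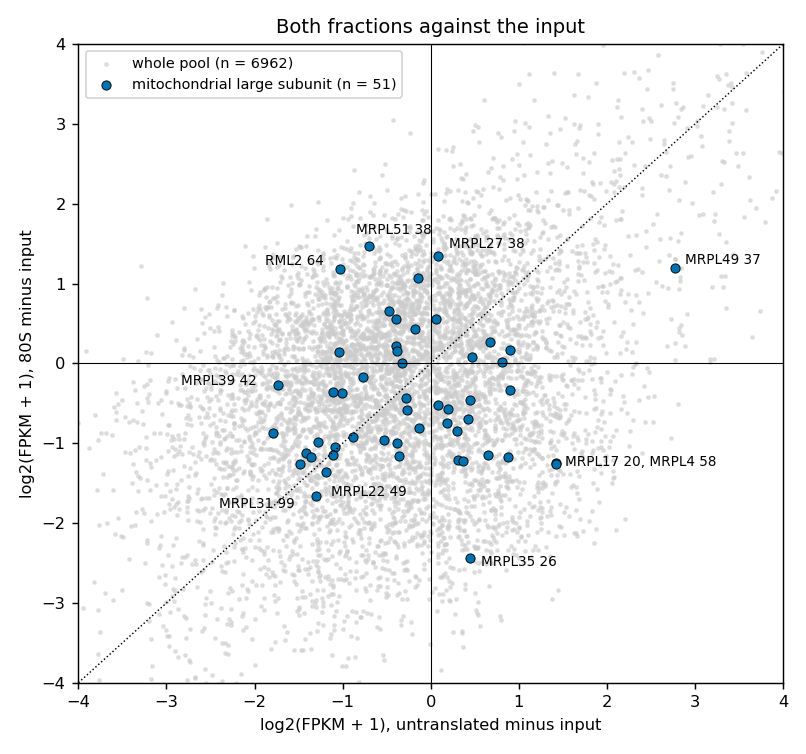
Difference in log2(FPKM + 1) between 80S and input (y axis) and between untranslated RNA and input (x axis) for the 51 members (blue) and the pool (grey; 71 pool RNAs lie outside the drawn range of 4 either way). MRPL49 stands alone at the right, above 0 on both axes (2.77 and 1.19), MRPL35 is the lowest member (-2.44), and RML2 with 64 nt and MRPL51 with 38 nt lie furthest above the dotted line of equal values.

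Pairs of leaders were also compared against the input. Of 29 pairs 13 differed in 80S against input (44.8%, against 50.1% of pairs in the pool), 7 with the longer leader higher (27.3% of the pool) and 6 with it lower (22.8%). By 2-fold or more 10 differed (34.5%, against 44% of the pool). Without 80S replicate 2, 8 pairs passed. Both comparisons use the same 80S libraries. For MRPL27 the longer leader was higher by 3.2-fold (log2 difference 1.68, SE 0.24, limma, adjusted p = 0.00134) and for RML2 from 51 to 64 nt by 4.48-fold (log2 difference 2.16, SE 0.26, limma, adjusted p = 0.000732). For MRPL4 the leaders stood at nearly the same 80S to input difference (-1.22 and -1.25), and at 0.36 and 1.42 in untranslated RNA against the input. MRPL24 at 42 and 75 nt stood at -0.87 and -0.74 in 80S and at -1.79 and 0.19 in untranslated RNA. Pairs were not tested for untranslated RNA against the input, and these values rest on the 1 input library.

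Leader length among the members ran from 14 to 110 nt around a median of 41 nt, and the pool median was 45 nt. Their median share of G and C was 37.04%, and 34.72% in the pool. A run of 5 or more T occurred in 1 member (MRPL22) and in 10.9% of the pool. The base at position -3 from the start codon was A in 33 of 51 (64.7%, 62.5% in the pool) and G in 5 (9.80%, 19.6% in the pool). An upstream ATG occurred in 6 leaders of 3 genes (11.8%, 14.2% in the pool). Of these 6, RML2 with 64 nt, MRPL39 and MRPL51 with 38 nt were higher in 80S and none was lower, and the median difference was 1.21, while in the pool the 970 leaders with an upstream ATG had a median of 0.33. The 157 pool leaders with an out-of-frame ATG within 10 nt of the start codon had a median of 0.18, with 34.4% higher and 29.3% lower. The 3 RML2 leaders share 1 such site, so the 6 leaders are 3 cases.

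Short leaders of the members were more often called lower than higher in 80S. Of 16 leaders up to 30 nt, each of a different gene, only MRPL33 was higher and 8 were lower, while in the pool 39.2% of such leaders were higher and 29.9% lower. Of 23 leaders of 31 to 60 nt, 6 were higher and 8 lower (39.6% and 30.9% of such pool leaders), and of 12 longer leaders 4 and 4 (37.3% and 34.3%). These length classes were chosen after the values were seen. Genes with 1 leader had 2 of 16 RNAs higher and 10 lower, while RNAs of such genes in the pool were higher in 39.5% and lower in 32.2%. Across the 51 RNAs, which share genes and libraries, Spearman's rho of the 80S to untranslated difference was 0.09 with leader length, -0.17 with the share of G and C, 0.25 with the share of A and 0.02 with folding energy. Over 6855 pool leaders it was -0.04, -0.27, 0.19 and 0.02.

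Genes that work beside the members also went both ways. The small subunit of the mitochondrial ribosome, with 51 RNAs of 29 genes, had 20 higher (39.2%) and 17 lower (33.3%) in 80S than in untranslated RNA, close to the pool shares of 38.6% and 31.8%, and a median log2 difference of 0.05. Its values ran from 3.14 for MRPS16 (27 nt) to -3.42 for MRPS28 (49 nt). Of 11 RNAs of 7 further large subunit proteins, 2 were higher and 4 lower, from MRP20 (uL23, 38 nt, 2.17) to RTC6 (bL36, 106 nt, -2.39). Mitochondrial translation and assembly factors had 11 of 31 RNAs higher and 10 lower, from the elongation factor MEF1 (26 nt, 2.28) to the ribosome recycling factor RRF1 (37 nt, -2.78). Members with bacterial counterparts had 6 of 32 RNAs higher and 14 lower, and mitochondria-specific members 5 of 19 higher and 6 lower. No test set these groups against each other.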

How the data were processed

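The authors deposited 1 FPKM value for each RNA in each of 6 libraries, per the file headers. Trimming and alignment tools listed in the submitters' processing notes are cutadapt and STAR, with no version. For the FPKM program, the genome build and reads shared between leaders the sources used here give nothing. Per the labels, groups were 80S (3), untranslated (2) and input (1). limma 3.58.1 (R 4.3.3) was fitted to log2(FPKM + 1) of all 6962 RNAs with 1 mean per group and a trend (3 residual and 5.15 prior degrees of freedom), and likewise to the 3811 within-library differences between leaders of 1 gene (longer minus shorter), with Benjamini-Hochberg adjustment over all of them and no filter on low values. Fold changes are on that log2 scale, where the added 1 understates those of low RNAs slightly. No RNA had a mean FPKM under 100, and the same 31 members were called with pseudocounts of 0.1 and 10. Leaders came from R64, features from Python 3.11.15 and folding energies from ViennaRNA 2.7.2. Full values were given for the 6 largest rises and falls past the threshold with fractions not overlapping, the 3 of each against the input, and pairs differing 2-fold. The members and lists, and the roles used for order, were chosen with earlier results of these data known. Alternatives were pseudocounts of 0.1 and 10, mean FPKM of at least 100 or 500, median-ratio rescaling, no trend, a replicate block, no input and leaving out each library.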

Additional observations from a re-analysis of the deposited data

How the results depend on the processing

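Of the counts of members and pairs called, 128 alternative values lay within 1.5 times the reported count and 8 did not. Median-ratio rescaling gave 14 members lower in 80S than in the input (23 as reported), and 11 higher and 5 lower in untranslated RNA than in the input (6 and 14 as reported). Leaving out single libraries gave 24 to 34 members called for 80S against untranslated, 8 to 15 higher and 16 to 20 lower. For 80S against input it gave 20 to 30 called, 5 or 6 higher and 15 to 24 lower, and for untranslated against input 13 to 25 called, 5 to 8 higher and 8 to 17 lower. Leader pairs called ranged from 18 to 23 against untranslated RNA and 8 to 16 against the input. With a lone untranslated library, that library is assumed to vary like the other groups. On leaving out single libraries, 8 RNAs that did not pass as reported changed sign. These were MRPL31 with 99 nt (0.19 and -0.91 without untranslated replicate 1 or 2), MRPL22 (0.23 and -0.58 likewise), MRPL40 with 52 nt (-0.19 and 0.11 without 80S replicate 1 or 2, and 0.04 without untranslated replicate 2), MRPL28 with 23 nt (0.17 without 80S replicate 3 and 0.01 without untranslated replicate 2), MRPL24 with 26 nt (-0.06 and -0.10 likewise) and, without untranslated replicate 2, MRPL32 (-0.15), MRPL6 (-0.17) and MRPL8 with 23 nt (-0.44). Whether libraries of the same replicate number belong together is not stated. Deviations of same-numbered libraries correlated at 0.09 and 0.53, and those of 80S replicate 3 and untranslated replicate 1 at 0.55. The deviations of the 2 untranslated libraries mirror each other, so these values cannot decide on a pairing. With the replicate block 30 members were called, 10 higher and 20 lower, and 28 of the 31 reported calls were kept. The filter at a mean FPKM of 100 removed 0 RNAs. Read depth is unknown, which leaves the error of low RNAs unmeasured beyond the spread of 2 or 3 libraries.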
